A study of Homo sapiens with 6 samples.

Results

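The genes described here are 37 human genes of cholesterol and fatty acid synthesis, taken by symbol from a table of 60504 genes measured in 6 RNA-seq libraries of HCC827, a lung adenocarcinoma cell line with mutant EGFR. All 37 symbols matched a single row. The list covers 6 enzymes of the mevalonate pathway, 11 enzymes that turn its product into sterols, 3 genes of sterol sensing and transport, 5 genes of acetyl-CoA supply and fatty acid synthesis, 7 elongases and desaturases, 2 acyl-CoA synthetases and 3 lipogenic regulators. The 3D group held 3 libraries of cells grown for 12 to 16 days as tumoroids in droplets of growth factor reduced Matrigel, each seeded with 50000 cells. The 2D group held 3 libraries of cells grown for 4 to 6 days as a monolayer in uncoated flasks, each seeded with 1000000 cells. Both groups were the same untreated line in the same serum-containing RPMI medium, and the comparison addressed how culture geometry changes expression in this line. Tumoroids were passaged with Dispase, a Rock inhibitor and TrypLE, and monolayers with TrypLE. Geometry, time, seeding and contact with the gel differed together and cannot be told apart.

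Cells build cholesterol from acetyl-CoA through mevalonate, farnesyl diphosphate, squalene and lanosterol, and build fatty acids from the same acetyl-CoA through malonyl-CoA. SREBP-2, the product of SREBF2, mainly switches on the sterol genes, and SREBP-1, the product of SREBF1, mainly the fatty acid genes. Both are held in the endoplasmic reticulum by INSIG proteins when sterols are plentiful, and are carried by SCAP to the Golgi and cleaved there by the proteases encoded by MBTPS1 and MBTPS2 when sterols run low. Liver X receptors, which sense oxidised sterols, also raise SREBF1.

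Values are TPM, the share of a library's transcripts that belong to a gene, adjusted for transcript length and scaled to 1 total in all libraries, so levels of different genes can be set side by side. TPM does not carry the number of reads, and the depth behind each value is unknown. The first principal component of log2(TPM + 1) separated the cultures, and along the second the libraries numbered 3 lay away from their own replicates. Transcripts of the mitochondrial genome took 12.3% of the TPM in 3D replicate 3, against 19.4% in each of the other 3D libraries and 14.4% to 17.5% in 2D. All 6 epithelial markers were detected, and they summed to 3826 to 7473 TPM in 3D and 6120 to 8460 TPM in 2D. None of the 6 passed the test, but 4 had negative log2 fold changes: KRT18 at -0.77 (limma adjusted p = 0.0794), with every 3D library below every 2D library, KRT8 at -0.65, KRT19 at -0.51 and EPCAM at -0.05. The 4 fibroblast markers summed to 5.28 to 10.9 TPM in 3D and 2.02 to 2.51 TPM in 2D, nearly all of it COL1A1, while COL3A1 was listed at 0 in all 6 libraries and COL1A2 and PDGFRB did not exceed 0.21 TPM. COL1A1 passed the test as higher in 3D (log2 fold change 1.33, limma adjusted p = 0.017), with every 3D library above every 2D library. The marker lists of leukocytes, endothelium, adipocytes and hepatocytes each summed to at most 3.35 TPM in any library. With mitochondrial genes left out, the counts of members called below were the same, and the counts without the libraries numbered 3 are given beside them. The part of the marker differences in the results was not tested.

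Of the 37 genes, 35 averaged 1 TPM or more across the 6 libraries and entered the test. In 3D, 6 of the 35 rose and 1 fell, while the other 28 missed the threshold (limma on log2(TPM + 1), Benjamini-Hochberg adjusted p under 0.05 over 15042 genes). Over all tested genes 10.2% were called higher and 2.12% lower, against 17.1% and 2.86% of these members. The 6 that rose were HMGCS1, SQLE, CYP51A1 and MSMO1, which are enzymes of cholesterol synthesis, the sterol carrier STARD4 and the fatty acid desaturase FADS2. The 1 that fell was SREBF1. The 3D libraries all lay above the 2D libraries for 7 members and all below for 4, against 27.3% and 9.4% of all tested genes. An unadjusted p under 0.05 was found for 6 members on the higher side and 5 on the lower, against 23.2% and 8.25% of all tested genes. The median log2 fold change of the 35 members was 0.10, close to the 0.12 of all tested genes, and 22 were positive, or 62.9% against 60.8% of all tested genes. After median-ratio scaling, which moved the median of all genes to -0.03, 3 members were called higher (HMGCS1, SQLE and FADS2) and 4 lower (SREBF1, ACACA, FASN and ME1), beside 6.2% and 4.41% of all genes under that scaling. With quantile normalization 5 members were called higher and 3 lower, beside 5.78% and 3.83% of all genes. Without both libraries numbered 3, 7 were called higher and 5 lower, beside a background of 16.3% and 8.97% of all genes. ELOVL6 and ACSL4 then joined the higher calls, STARD4 left them (limma adjusted p = 0.0679), and ACACA, FASN, SCD and TM7SF2 joined SREBF1 among the lower. Fewer cells that express a gene and less of its RNA per cell cannot be told apart in these bulk libraries.

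**Figure D1:**
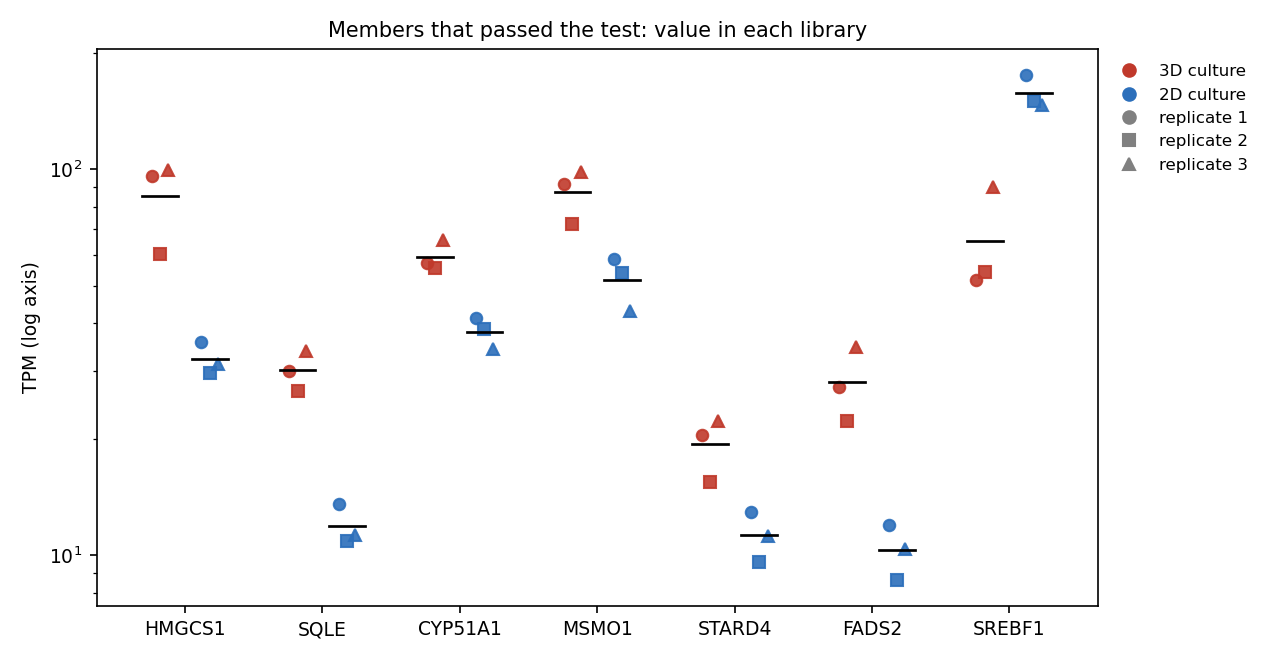
TPM on a log axis (vertical) of the 7 members that passed the test, in each 3D library (red) and each 2D library (blue), with symbols for replicates and black lines for group means. All 3D libraries lie above all 2D libraries for 6 genes and below them for SREBF1, in which 3D replicate 3 stood nearest to the 2D libraries at 89.7 TPM.

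Transcripts of 4 of the 17 mevalonate and sterol enzymes were called higher in 3D, or 23.5% against 10.2% of all tested genes. HMGCS1, which makes the HMG-CoA that feeds the mevalonate pathway, had 96.0, 60.5 and 99.3 TPM in the 3D libraries, against 35.8, 29.6 and 31.4 TPM in the 2D libraries. The groups did not overlap, and 3D replicate 2 was the lowest of its group. It averaged 85.3 ± 21.5 TPM in 3D and 32.3 ± 3.15 TPM in 2D (mean ± SD, n = 3 each), a 2.64-fold ratio of means and a log2 fold change of 1.35 (SE 0.21, limma adjusted p = 0.00992). The call was lost only without 3D replicate 1 among the settings run, at adjusted p = 0.0506. The antisense gene CTD-2636A23.2 overlaps HMGCS1 and had 9.06, 2.83 and 0.62 TPM in 3D and 0.07, 1.4 and 0.03 TPM in 2D. SQLE, the squalene epoxidase that carries out the first oxygen-requiring step on the way to sterols, had 30.0, 26.6 and 33.9 TPM in 3D and 13.6, 10.9 and 11.3 TPM in 2D. Its lowest 3D value was above its highest 2D value, and means of 30.1 ± 3.67 TPM in 3D and 11.9 ± 1.43 TPM in 2D gave a log2 fold change of 1.27 (SE 0.15, limma adjusted p = 0.00396). SQLE kept its call in each setting run.

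CYP51A1 and MSMO1 remove methyl groups from lanosterol in consecutive parts of the route to cholesterol, and both also use oxygen. CYP51A1 had 57.1, 55.6 and 65.6 TPM in 3D and 41.3, 38.5 and 34.3 TPM in 2D, with a log2 fold change of 0.63 (SE 0.13, limma adjusted p = 0.0256). MSMO1 had 91.7, 72.3 and 98.2 TPM in 3D and 58.6, 53.7 and 42.9 TPM in 2D, with a log2 fold change of 0.74 (SE 0.17, limma adjusted p = 0.0334). Neither gene's groups overlapped, but the rises were smaller than those of HMGCS1 and SQLE and less stable. Median-ratio scaling ended both calls, as did leaving out any library numbered 1 or 2, and MSMO1 was also lost without 3D replicate 3 or with no filter on low TPM (limma adjusted p up to 0.0907 for CYP51A1 and 0.124 for MSMO1).

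The other 13 enzymes of the mevalonate and sterol steps did not pass the test, and the 3D and 2D libraries overlapped for each of them. FDFT1, the squalene synthase that acts just before SQLE, was the most abundant cholesterol gene by mean TPM, with 237, 155 and 305 TPM in 3D and 266, 206 and 210 TPM in 2D. Its log2 fold change was -0.01, with a 95% interval from -0.58 to 0.57. FDPS, which makes farnesyl diphosphate, had 205, 157 and 285 TPM in 3D and 212, 167 and 199 TPM in 2D (log2 fold change 0.13, interval -0.39 to 0.64). For each of these abundant enzymes 3D replicate 2 was the lowest and 3D replicate 3 the highest of all 6 libraries. IDI1, the isomerase that makes dimethylallyl diphosphate, averaged 19.7 ± 5.52 TPM in 3D and 13.7 ± 1.34 TPM in 2D, and SC5D, a sterol desaturase, 59.6 ± 10.6 TPM in 3D and 44.9 ± 9.94 TPM in 2D (log2 fold changes 0.47 and 0.41, limma adjusted p = 0.176 and 0.219). TM7SF2, a sterol C14 reductase, had the most negative log2 fold change of the enzymes, with 19.5 ± 4.95 TPM in 3D and 26.6 ± 9.56 TPM in 2D (log2 fold change -0.40, limma adjusted p = 0.344). It overlaps VPS51 on the same strand, so its reads may be shared. Without both libraries numbered 3 it was called lower (log2 fold change -0.79, limma adjusted p = 0.0453). The remaining 8, MVK, PMVK, MVD, LSS, NSDHL, HSD17B7, EBP and DHCR7, lay between -0.07 for LSS and 0.19 for MVD. MVK and DHCR7 each overlap a gene on the opposite strand (MMAB and RP11-660L16.2), which adds to the uncertainty of their values.

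**Figure D2:**
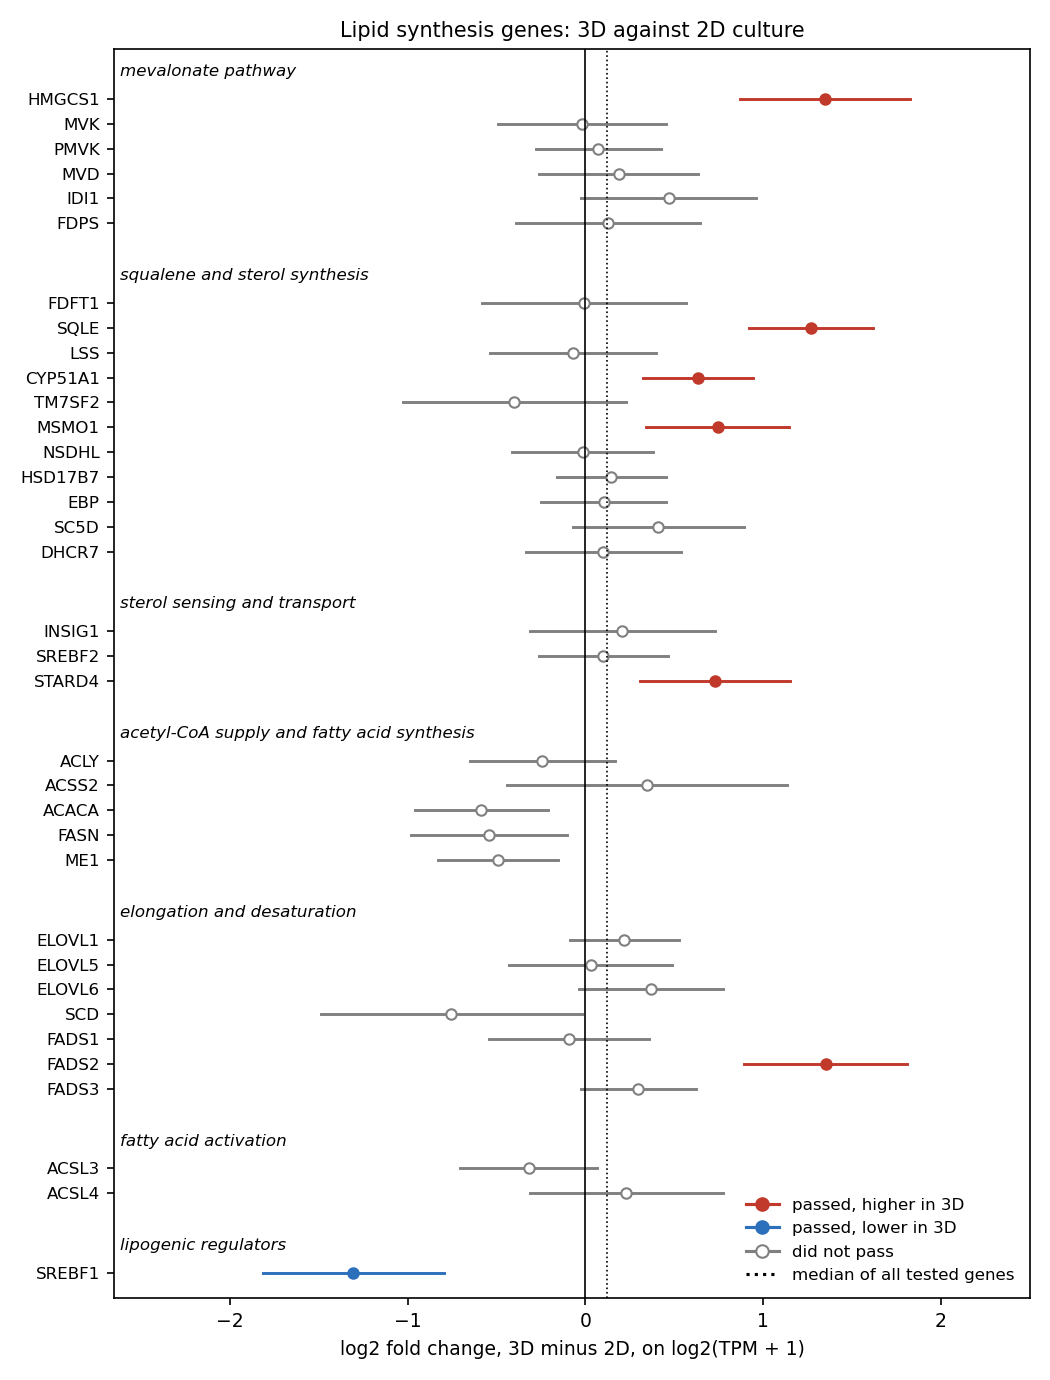
Log2 fold change of 3D minus 2D on log2(TPM + 1) for the 35 tested members, by role, with 95% intervals from limma. Filled red points passed the test as higher in 3D, the filled blue point as lower, and open grey points did not pass. The dotted line is the median of all tested genes, 0.12. HMGCS1, SQLE and FADS2 lie farthest to the right, and SREBF1 farthest to the left.

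Among the 20 genes of the mevalonate, sterol and sterol-sensing groups, 3D replicate 3 held the highest 3D value in 18 and 3D replicate 2 the lowest in 15. In 2D, replicate 1 held the highest value in 18, while the lowest was in replicate 2 for 10 genes and in replicate 3 for 10. The summed TPM of the 17 enzymes was 1123, 884 and 1360 in the 3D libraries and 1074, 870 and 861 in the 2D libraries, so the groups overlapped in the sum although 4 of the enzymes rose. In 3D the sum of these enzymes averaged 1122 ± 238 TPM, against 935 ± 121 TPM in 2D.

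Ratios of 2 genes within a library do not depend on a scaling factor per library, and they are given as a description, with pairs chosen after the values were seen. HMGCS1 stood at 0.468, 0.386 and 0.348 of FDPS in 3D and at 0.168, 0.177 and 0.158 of it in 2D. SQLE stood at 0.126, 0.171 and 0.111 of FDFT1 in 3D and at 0.0510, 0.0529 and 0.0539 of it in 2D. MSMO1 stood at 1.67, 1.73 and 1.57 of NSDHL, the enzyme that works in the same demethylation cycle, in 3D and at 1.04, 0.985 and 0.884 of it in 2D. In these 3 pairs a gene that rose was set over one that did not pass the test. The separation of the groups follows from that choice and supports nothing further. The same holds for FADS2/FADS1, SREBF1/SREBF2 and INSIG2/INSIG1, given below, where a called gene was also set over one not called.

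**Figure D3:**
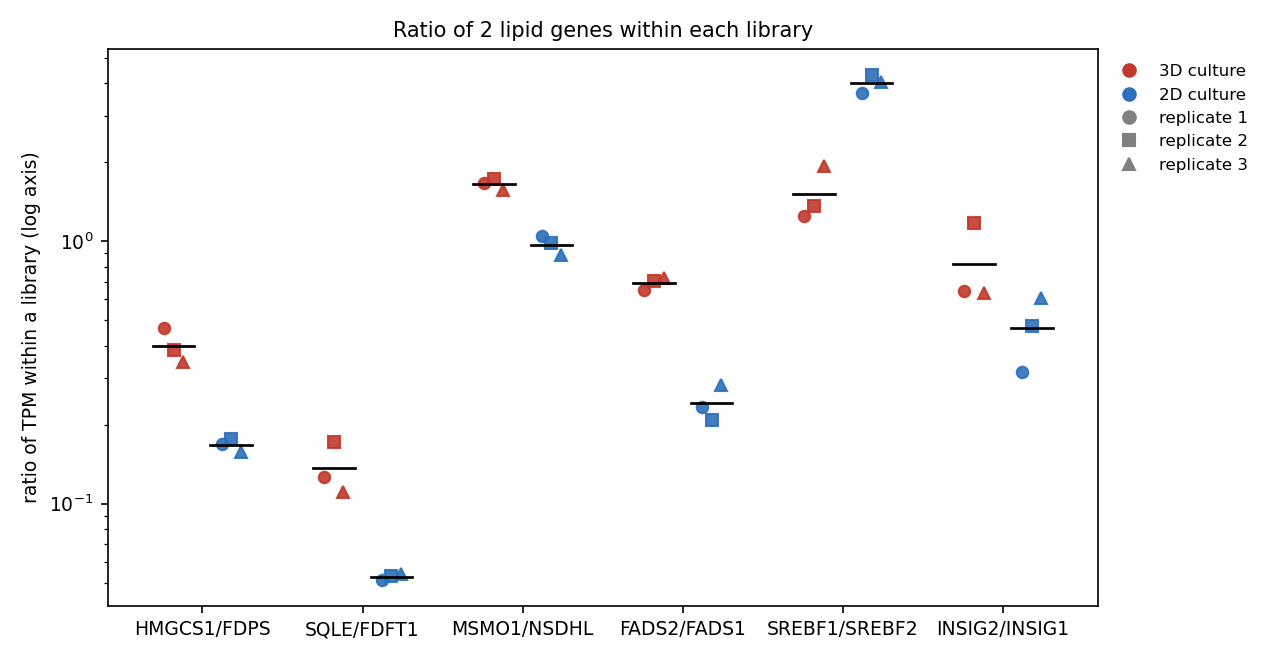
Ratio of the TPM of 2 genes within each library, on a log axis (vertical), for 6 pairs, with 3D libraries in red, 2D libraries in blue, symbols for replicates and black lines for group means. SREBF1/SREBF2 is lower in every 3D library than in any 2D library, and the other pairs are higher. INSIG2/INSIG1 comes closest to overlap, with 0.634 in 3D replicate 3 and 0.608 in 2D replicate 3.

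STARD4, a soluble protein that carries cholesterol between membranes, rose, while the sterol sensors among the members did not pass the test. It had 20.5, 15.5 and 22.3 TPM in 3D and 12.95, 9.61 and 11.3 TPM in 2D, groups that did not overlap. Its log2 fold change was 0.73 (SE 0.18, limma adjusted p = 0.0405), and this was the least stable of the 7 calls, lost in 11 of 16 alternative settings, among them each single library left out (limma adjusted p up to 0.145). The antisense gene STARD4-AS1 overlaps it, with 1.64 ± 0.196 TPM in 3D and 1.08 ± 0.612 TPM in 2D. INSIG1, a retention protein that is itself a target of SREBP, had 78.8, 57.3 and 104 TPM in 3D and 78.7, 59.7 and 64.4 TPM in 2D (log2 fold change 0.21, interval -0.31 to 0.73). SREBF2 had 41.2, 39.7 and 46.2 TPM in 3D and 47.9, 34.8 and 36.5 TPM in 2D (log2 fold change 0.10, interval -0.26 to 0.46, negative at -0.07 after median-ratio scaling). For both INSIG1 and SREBF2 the groups overlapped.

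Promoter sequence is shown for 4 of the genes that rose, for SREBF2, which did not pass the test, and for SREBF1, which fell, because the sterol genes are known targets of SREBP, which binds sterol regulatory elements next to CCAAT boxes bound by NF-Y. Each is the RefSeq window of 300 bases on GRCh38.p14, from 250 bases before to 50 bases after the annotated start, written in the direction of the gene. Capitals mark each match to TCACNCCA, the core letters of a sterol regulatory element, and to CCAAT, on either strand (as ATTGG on the other).
HMGCS1 (chr5:43313363-43313662, minus strand): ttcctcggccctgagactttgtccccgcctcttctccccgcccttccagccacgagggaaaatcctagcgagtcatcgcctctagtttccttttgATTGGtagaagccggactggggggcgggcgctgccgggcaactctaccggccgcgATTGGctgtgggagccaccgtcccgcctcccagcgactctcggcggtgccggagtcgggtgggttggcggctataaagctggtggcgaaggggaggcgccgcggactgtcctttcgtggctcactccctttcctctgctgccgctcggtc
CYP51A1 (chr7:92134428-92134727, minus strand): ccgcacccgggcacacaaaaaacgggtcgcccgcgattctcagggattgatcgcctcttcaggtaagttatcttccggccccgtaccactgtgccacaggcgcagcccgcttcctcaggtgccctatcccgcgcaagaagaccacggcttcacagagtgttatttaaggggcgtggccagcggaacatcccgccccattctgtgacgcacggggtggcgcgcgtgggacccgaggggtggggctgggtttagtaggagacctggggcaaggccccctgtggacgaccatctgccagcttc
MSMO1 (chr4:165327419-165327718, plus strand): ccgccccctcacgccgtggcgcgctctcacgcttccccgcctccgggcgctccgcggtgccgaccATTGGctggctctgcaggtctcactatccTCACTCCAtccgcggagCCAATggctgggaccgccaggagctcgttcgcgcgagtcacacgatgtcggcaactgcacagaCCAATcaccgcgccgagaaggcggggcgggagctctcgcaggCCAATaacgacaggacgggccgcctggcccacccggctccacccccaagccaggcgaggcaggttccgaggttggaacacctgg
STARD4 (chr5:111512486-111512785, minus strand): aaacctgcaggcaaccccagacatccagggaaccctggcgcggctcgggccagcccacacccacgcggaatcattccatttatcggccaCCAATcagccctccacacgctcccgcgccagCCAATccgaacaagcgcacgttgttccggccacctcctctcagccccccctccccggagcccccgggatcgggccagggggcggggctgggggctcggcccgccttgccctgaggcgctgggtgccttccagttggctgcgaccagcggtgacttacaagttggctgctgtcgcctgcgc
SREBF2 (chr22:41832855-41833154, plus strand): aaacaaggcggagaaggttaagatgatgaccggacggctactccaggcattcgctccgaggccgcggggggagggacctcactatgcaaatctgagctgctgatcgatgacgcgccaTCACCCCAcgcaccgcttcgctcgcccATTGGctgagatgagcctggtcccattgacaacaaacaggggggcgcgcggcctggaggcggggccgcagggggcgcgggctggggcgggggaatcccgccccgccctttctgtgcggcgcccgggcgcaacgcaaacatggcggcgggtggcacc
SREBF1 (chr17:17836937-17837236, minus strand): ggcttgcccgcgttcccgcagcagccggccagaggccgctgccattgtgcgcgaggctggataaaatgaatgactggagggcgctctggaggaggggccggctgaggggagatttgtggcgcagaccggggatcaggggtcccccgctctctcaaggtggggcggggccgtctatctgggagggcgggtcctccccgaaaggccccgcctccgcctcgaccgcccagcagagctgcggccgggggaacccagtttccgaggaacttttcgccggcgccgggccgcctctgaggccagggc

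Windows were found for 34 of the 37 genes, using the window listed first for a symbol. CCAAT occurred in 15 of 18 windows of cholesterol genes (83.3%) and 8 of 16 of fatty acid genes (50%), against 35.7% of 27305 windows of all genes. TCACNCCA occurred in 3 cholesterol windows, those of MVK, MSMO1 and SREBF2, and in 1 fatty acid window, that of ME1, against 3.93% of all windows. The E-box CACGTG, another sequence that SREBP-1 can bind, occurred in the windows of LSS, SC5D, INSIG1 and ELOVL5, against 7.43% of all windows. Counted from the annotated start, the TCACNCCA match in MSMO1 began at position -156 and a CCAAT at -139. In SREBF2 the match began at -133 and ATTGG at -106. Of the 6 genes that rose, 5 had a window, and 3 of these (60%) hold CCAAT: HMGCS1, MSMO1 and STARD4. TCACNCCA occurred in 1 of the 5, that of MSMO1, and CACGTG in 0. The window of FADS2, not shown, holds none of these sequences, and SQLE had no window. The windows used for CYP51A1 and SREBF1 hold neither TCACNCCA nor CCAAT. Sequence at any other start of these genes was not searched, so the lack of a match covers these windows only. MVK and SREBF2 carry both TCACNCCA and CCAAT and did not pass the test. A match describes letters and not binding.

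Of the 5 genes of acetyl-CoA supply and fatty acid synthesis 4 had negative log2 fold changes, and none passed the test. ACACA, the acetyl-CoA carboxylase that makes malonyl-CoA, had 45.4, 36.7 and 36.3 TPM in 3D and 70.6, 56.8 and 52.3 TPM in 2D (log2 fold change -0.59, SE 0.16, limma adjusted p = 0.0537). FASN, the fatty acid synthase, had 47.5, 53.6 and 68.7 TPM in 3D and 99.0, 69.1 and 80.6 TPM in 2D (log2 fold change -0.54, SE 0.19, limma adjusted p = 0.0984). ME1, the malic enzyme that supplies NADPH, had 9.96, 8.03 and 9.18 TPM in 3D and 12.0, 12.9 and 14.5 TPM in 2D (log2 fold change -0.49, SE 0.15, limma adjusted p = 0.066). For these 3 genes every 3D library was below every 2D library, a pattern found in 9.4% of all tested genes. Their calls depended on the setting. ACACA was called lower when genes had to average 5 TPM or more, with median-ratio scaling, quantile normalization or the replicate block, and without 2D replicate 3 or both libraries numbered 3 (limma adjusted p between 0.0269 and 0.0499). FASN was called lower with median-ratio scaling and without both libraries numbered 3, and ME1 with median-ratio scaling and quantile normalization.

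ACLY and ACSS2, which make cytosolic acetyl-CoA from citrate and from acetate, overlapped between the cultures. ACLY averaged 101 ± 10.0 TPM in 3D and 120.5 ± 24.7 TPM in 2D (log2 fold change -0.24, interval -0.65 to 0.17). ACSS2 had 44.2, 32.1 and 43.0 TPM in 3D and 48.4, 34.1 and 17.4 TPM in 2D, and its interval, -0.44 to 1.14, was the widest of the 35. Without 2D replicate 3, the low library, its log2 fold change was -0.05. Summed over the 5 genes, TPM stood at 244, 224 and 269 in 3D and 352, 268 and 309 in 2D.

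**Figure D4:**
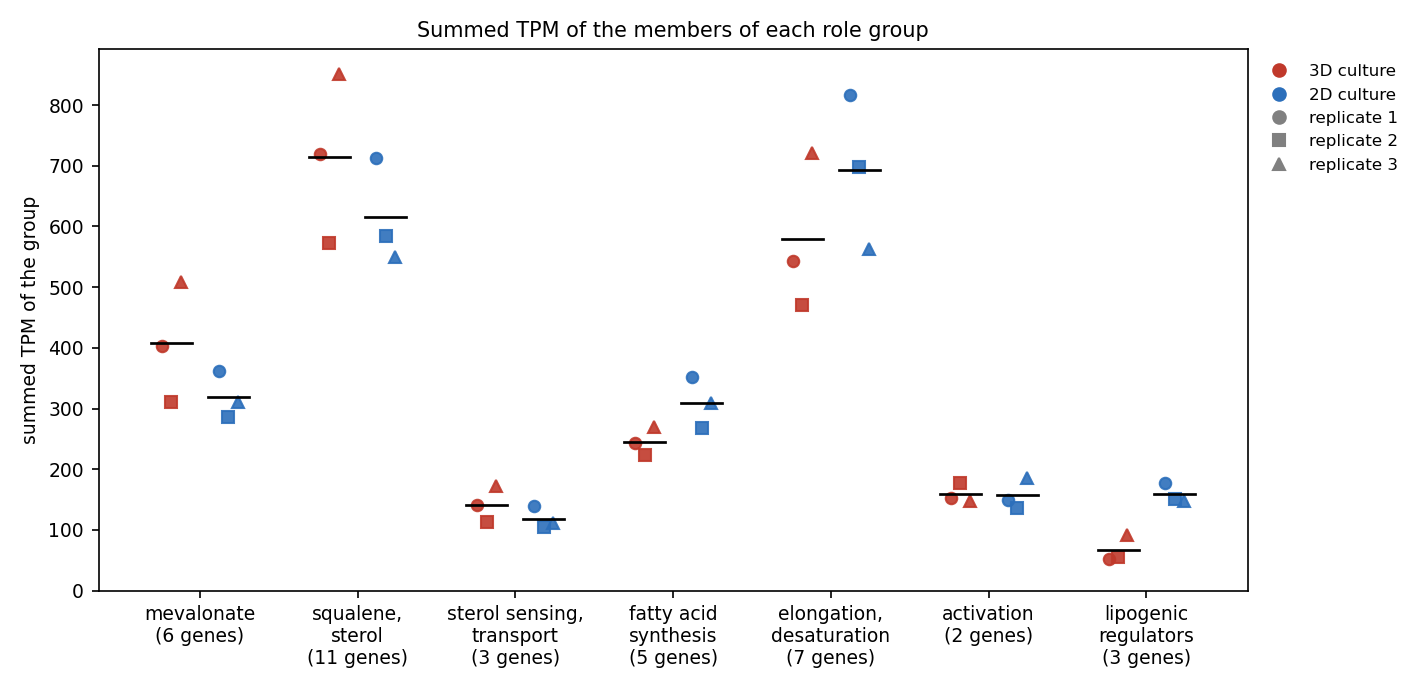
Summed TPM (vertical, from 0) of the members of each role group in each 3D library (red) and each 2D library (blue), with symbols for replicates and black lines for group means. The groups of libraries overlap in every role except the lipogenic regulators, where SREBF1 makes up nearly all of the sum.

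Among desaturases, FADS2 rose and SCD did not pass the test. FADS2, the delta-6 desaturase that opens the synthesis of polyunsaturated fatty acids, had 27.4, 22.3 and 34.8 TPM in 3D and 12.0, 8.61 and 10.4 TPM in 2D. Its means of 28.1 ± 6.25 TPM in 3D and 10.3 ± 1.70 TPM in 2D stood 2.72-fold apart, the largest ratio among the tested members, with a log2 fold change of 1.35 (SE 0.20, limma adjusted p = 0.00831), and the call was kept in each setting run. FADS1, the delta-5 desaturase that acts later in the same route, had 42.1, 31.7 and 47.8 TPM in 3D and 51.3, 41.2 and 36.6 TPM in 2D (log2 fold change -0.09, interval -0.54 to 0.36). FADS2 therefore stood at 0.651, 0.704 and 0.727 of FADS1 in 3D and at 0.234, 0.209 and 0.284 of it in 2D. The genes are neighbours on chromosome 11, and in GENCODE 29 on GRCh38 they overlap on opposite strands (FADS2 at chr11:61792980-61867354 on the plus strand, FADS1 at chr11:61799625-61829318 on the minus strand). FEN1, a DNA repair nuclease, lies within FADS2 on its strand and had 31.0 ± 7.60 TPM in 3D and 40.1 ± 1.03 TPM in 2D (log2 fold change -0.39, limma adjusted p = 0.179). Whether the authors counted by strand is not given in the sources used here, and the division of reads among these genes is uncertain. FADS3, the third gene of the cluster, averaged 18.4 ± 2.08 TPM in 3D and 14.7 ± 1.12 TPM in 2D. Its groups did not overlap, and its log2 fold change of 0.30 did not pass the test (limma adjusted p = 0.19).

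SCD, the delta-9 desaturase that makes oleate, was the most abundant of the 37 members by mean TPM, with the widest SD in 3D. It had 224, 164 and 378 TPM in 3D and 512, 418 and 313 TPM in 2D. Its groups overlapped in that 3D replicate 3 was above 2D replicate 3, while the other 3D libraries were below every 2D library. With all libraries its log2 fold change was -0.75 (SE 0.31, limma adjusted p = 0.15), and without both libraries numbered 3 it was -1.27 (adjusted p = 0.00596). Leaving out 3D replicate 3 alone gave -1.08 (adjusted p = 0.0367). The elongases ELOVL1 and ELOVL5 had 129 ± 13.3 and 74.8 ± 9.33 TPM in 3D and 111 ± 9.01 and 74.3 ± 16.8 TPM in 2D. ELOVL6, which elongates palmitate, had 33.7, 31.0 and 31.7 TPM in 3D and 21.1, 22.2 and 31.9 TPM in 2D, where replicate 3 alone reached the 3D level. It was called higher without that library (log2 fold change 0.55, limma adjusted p = 0.0363) and not with it (0.37, adjusted p = 0.193). The acyl-CoA synthetases ACSL3 and ACSL4, which activate fatty acids for lipid synthesis, had 44.9 ± 1.72 and 114 ± 16.2 TPM in 3D and 57.1 ± 12.1 and 100.1 ± 34.2 TPM in 2D. Neither passed the test, although ACSL4 was called higher without both libraries numbered 3 (log2 fold change 0.57, limma adjusted p = 0.0301).

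SREBF1 was the only member that fell. It had 51.6, 54.2 and 89.7 TPM in 3D and 176, 150 and 147 TPM in 2D. Every 3D library was below every 2D library, with 3D replicate 3 above the other 3D libraries, and the means were 65.2 ± 21.3 TPM in 3D and 158 ± 15.9 TPM in 2D (log2 fold change -1.31, SE 0.22, limma adjusted p = 0.0132). Leaving out either of the lower 3D libraries or 2D replicate 2 ended the call (adjusted p between 0.0518 and 0.0631). Set against SREBF2 in the same library, SREBF1 stood at 1.25, 1.36 and 1.94 in 3D and at 3.68, 4.32 and 4.03 in 2D. RAI1 overlaps SREBF1 on the opposite strand and had 23.3 ± 3.25 TPM in 3D and 24.9 ± 5.70 TPM in 2D. The remaining regulators were below the minimum of 1 TPM and were not tested. MLXIPL, which encodes the glucose-responsive factor ChREBP, averaged 1.24 ± 0.350 TPM in 3D and 0.747 ± 0.335 TPM in 2D, just under the minimum over all libraries. THRSP, a lipogenic protein of liver and fat, did not exceed 0.22 TPM in any library.

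The machinery that processes SREBP was set beside these genes as a list of 8, chosen with earlier results of these data known. In it 3 rose (37.5%, against 10.2% of all tested genes) and 5 missed the threshold. Its median log2 fold change was 0.28, against 0.12 over all tested genes. INSIG2, the INSIG form that is not driven by SREBP, had 51.0, 66.9 and 65.9 TPM in 3D and 24.9, 28.3 and 39.1 TPM in 2D. The groups did not overlap (log2 fold change 0.99, SE 0.20, limma adjusted p = 0.0214), and INSIG2 stood at 0.647, 1.17 and 0.634 of INSIG1 in 3D and at 0.316, 0.473 and 0.608 of it in 2D. RNF139, an endoplasmic reticulum ubiquitin ligase that binds INSIG proteins, had 18.4, 20.6 and 20.3 TPM in 3D and 10.6, 12.3 and 9.69 TPM in 2D (log2 fold change 0.81, SE 0.14, limma adjusted p = 0.0142). MBTPS2, the site-2 protease, had 11.7, 13.95 and 11.3 TPM in 3D and 7.66, 7.40 and 7.46 TPM in 2D (log2 fold change 0.64, SE 0.14, limma adjusted p = 0.0282). SCAP, the escort protein, averaged 14.4 ± 0.816 TPM in 3D and 17.4 ± 2.84 TPM in 2D (log2 fold change -0.24, interval -0.60 to 0.11), with groups that did not overlap. All 3 calls ended when either 3D replicate 1 or 3D replicate 2 was left out, those of INSIG2 and MBTPS2 also when 2D replicate 1 or 2 was left out or with no filter, and that of MBTPS2 also with either rescaling (limma adjusted p up to 0.0924 for INSIG2, 0.0639 for RNF139 and 0.1 for MBTPS2).

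Over all 65 tested genes of the neighbouring lipid lists, the SREBP machinery included, 9.23% were called higher and 3.08% lower, near the 10.2% and 2.12% of all tested genes. Of 6 other sterol-regulated genes 1 rose, the lipase PNPLA3, with 2.48 ± 0.205 TPM in 3D and 0.850 ± 0.259 TPM in 2D (log2 fold change 0.92, limma adjusted p = 0.033), a call lost in 8 of 15 settings including 5 single libraries left out (adjusted p up to 0.123). Of 10 tested genes of further fatty acid synthesis and elongation 1 rose and 1 fell. ACSL1, an acyl-CoA synthetase, had 33.4, 43.3 and 30.0 TPM in 3D and 5.70, 5.33 and 4.18 TPM in 2D (log2 fold change 2.58, SE 0.18, limma adjusted p = 0.000425), and kept its call in each setting run. TECR, the reductase of the last step of very long chain elongation, had 87.6, 76.2 and 112 TPM in 3D and 212, 164 and 152 TPM in 2D (log2 fold change -0.94, SE 0.19, limma adjusted p = 0.0222), a call that ended with no filter and when any library numbered 1 or 2 was left out (adjusted p up to 0.0898). None of the 5 tested genes of liver X receptors and sterol efflux passed, nor did any of 9 genes of sterol uptake, esterification and transport or of 6 genes of the isoprenoid branches (limma, with 1, 1 and 0 genes at an unadjusted p under 0.05). Over all tested genes 23.2% had such a p on the higher side and 8.25% on the lower. LXR alpha, encoded by NR1H3, averaged 12.0 ± 2.55 TPM in 3D and 17.2 ± 1.63 TPM in 2D (log2 fold change -0.50, limma adjusted p = 0.103). The most abundant genes of these 3 lists were NR1H2 and LPCAT3, NPC2 and STARD3, and FNTA and GGPS1, with log2 fold changes between -0.34 for NPC2 and 0.31 for NR1H2.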

How the data were processed

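RNA was measured in 3 libraries of 3D culture and 3 of 2D culture of HCC827 cells, grouped by their titles. Per the labels' protocols, poly(A) RNA from samples with an RNA integrity number above 9 was made into directional libraries and sequenced as single reads of 75 nt. The authors deposited TPM per gene and library, rounded to 2 decimals; depth is unknown, so no counting interval is given. Per the submitters' processing notes, the tools were RSEM 1.3.1, STAR 2.7.0d and cutadapt 2.3 and the build hg38. What each tool did, the annotation release and strand use are not stated in the sources used here.

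The 15042 genes that averaged 1 TPM or more were compared two-sided in R 4.3.3 with limma 3.58.1 (lmFit, then eBayes with a trend), on log2(TPM + 1), 3D against 2D with no covariate, Benjamini-Hochberg adjusted over all tested genes. Log2 fold changes are on this scale, which understates changes of low genes. The fit was tested on simulated data. Nothing in the labels ties the libraries to separate cultures. The p-values therefore cover the spread among these 6 samples alone, and that spread may be technical. An exact test of 3 against 3 cannot give a p under 0.1.

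The members and lists were chosen with earlier results of these data known. Every member is accounted for, with each library's value for called members; of the other lists, up to 4 called genes were named, or the 2 most abundant where none was called. The values of genes that did not pass, of overlapping genes and of NR1H3 and SCAP were given outside that rule, chosen after they were seen. Alternatives were no filter or one at 5 TPM, a pseudocount of 0.1 or 5, median-ratio scaling, quantile normalization, no trend, the replicate block, each library left out, and both libraries numbered 3 left out; leaving out genes of the mitochondrial genome was added after seeing the data. Coordinates came from GENCODE 29 on GRCh38 and promoter windows from RefSeq on GRCh38.p14; the last 20 bases of 31 of 34 windows were found in a GENCODE transcript of the same gene. Plots were made in Python 3.11.15 with matplotlib 3.10.9.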

Additional observations from a re-analysis of the deposited data

How the results depend on the processing

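The 6 higher and 1 lower calls among the members became 6 and 2 when genes had to average 5 TPM or more, 3 and 4 with median-ratio scaling, 5 and 3 with quantile normalization, 6 and 2 with the replicate block, 4 and 1 with no filter, 5 and 1 with no trend, and 7 and 5 without both libraries numbered 3. They ranged from 2 to 6 and from 0 to 2 with each library left out in turn, the lowest without 3D replicate 1. The shares of all genes called higher and lower moved too. They were 11.3% and 2.86% with the 5 TPM filter, 9.83% and 2.63% with the block, and 2.15% and 0.254% with no filter. With no trend they were 9.5% and 1.73%, and without 3D replicate 1 they were 2.44% and 0.193%. The member counts did not change with other pseudocounts or without mitochondrial genes. Over all genes the split of 1536 higher and 319 lower (82.8% higher) became 931 and 662 (58.4%) with median-ratio scaling, 869 and 576 (60.1%) with quantile normalization, 729 and 86 with no filter, 2464 and 1356 without both libraries numbered 3, and 367 to 1607 and 29 to 563 with single libraries left out. No called member changed direction in any setting.

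Changes of sign were seen only in members that did not pass the test, and the cause was not tested. With median-ratio scaling the log2 fold changes were -0.10 (PMVK), -0.053 (FDPS), -0.025 (HSD17B7), -0.073 (EBP), -0.075 (DHCR7), -0.075 (SREBF2) and -0.15 (ELOVL5), and with quantile normalization -0.041 (PMVK), -0.0084 (HSD17B7) and -0.017 (ELOVL5). Without both libraries numbered 3 they were -0.019 (PMVK), -0.059 (MVD), -0.072 (FDPS), -0.064 (EBP), -0.11 (DHCR7), -0.029 (INSIG1), -0.015 (SREBF2), -0.11 (ACSS2) and -0.065 (ELOVL5). Without mitochondrial genes they were 0.0014 (MVK), 0.012 (FDFT1) and 0.0050 (NSDHL). With single libraries left out the sign changed in 11 members, whose log2 fold changes ranged from -0.19 to 0.12 (MVK), -0.023 to 0.20 (PMVK), -0.10 to 0.33 (FDPS), -0.23 to 0.25 (FDFT1), -0.23 to 0.14 (LSS), -0.14 to 0.15 (NSDHL), -0.036 to 0.18 (EBP), -0.0086 to 0.28 (DHCR7), -0.045 to 0.67 (ACSS2), -0.17 to 0.14 (ELOVL5) and -0.22 to 0.072 (FADS1).

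Same-numbered libraries of the 2 cultures deviated from their group means with correlations across genes of 0.10, 0.04 and 0.19 for replicates 1, 2 and 3. The value for replicates 3 was the highest of all pairs. Each replicate 3 correlated negatively with replicates 1 and 2 of the other culture (-0.05 to -0.17). Deviations from the group mean cancel within each culture, so a positive value in a pair forces a negative value with another replicate. These negative values are therefore not a separate observation. As 3D replicate 1 correlated more with 2D replicate 2 (0.13), the numbers were not taken to pair the samples. Whether the libraries numbered 3 shared a batch was not tested. With the replicate block ACACA was called lower (log2 fold change -0.59, limma adjusted p = 0.0399). TPM keeps no depth, so it cannot be said which low values rest on few reads.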

Other observations

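Genes of lipid droplets and of fatty acid breakdown were read beside the synthesis genes. Of 11 genes of glycerolipid synthesis and lipid droplets, 1 rose and 1 fell. That is 9.09% in each direction, against 10.2% higher and 2.12% lower over all tested genes. Their median log2 fold change was 0.16, against 0.12 over all tested genes. HILPDA, a droplet protein that inhibits fat breakdown and is induced by low oxygen, had 113, 192 and 116 TPM in 3D and 17.1, 15.2 and 43.2 TPM in 2D (log2 fold change 2.54, SE 0.39, limma adjusted p = 0.0103), and kept its call in each setting run, with its highest adjusted p, 0.049996, without 3D replicate 2. PNPLA2, the main triglyceride lipase of droplets, which HILPDA inhibits, had 19.5, 29.5 and 23.5 TPM in 3D and 43.8, 38.3 and 41.8 TPM in 2D (log2 fold change -0.77, SE 0.17, limma adjusted p = 0.0287). Its groups did not overlap, but the call was lost with no filter and without 3D replicate 1, 3D replicate 3, 2D replicate 1 or 2D replicate 2 (adjusted p up to 0.105). The droplet coat gene PLIN2 had 58.2 ± 7.41 TPM in 3D and 39.3 ± 15.9 TPM in 2D and did not pass the test (adjusted p = 0.154), with 2D replicate 3 at 57.5 TPM among the 3D values.

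None of 10 genes of fatty acid oxidation passed the test (limma), beside 10.2% of all tested genes called higher and 2.12% lower. At an unadjusted p under 0.05 there were 0 of the 10, beside 23.2% of all tested genes on the higher side and 8.25% on the lower. The median log2 fold change of the 10 was -0.10, against 0.12 over all tested genes. The most abundant were ACADVL, with 465 ± 41.3 TPM in 3D and 512 ± 18.5 TPM in 2D, and HADHA, with 109 ± 8.42 TPM in 3D and 119 ± 7.51 TPM in 2D.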
